A study of Mus musculus with 9 samples.

Results

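The genes described here are 10 genes of the pigment cell, the melanocyte: the transcription factors Sox10 and Mitf, the pigment enzymes Tyr, Tyrp1 and Dct, the melanosome proteins Pmel and Mlana, the transporters Slc45a2 and Oca2, and the glycoprotein gene Gpnmb. They were chosen by name, and every probe set annotated to exactly 1 of them was taken, which gave 19 of the 45037 probe sets on the array. The array names 18193 genes through such single-gene probe sets.

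Melanocytes make melanin inside melanosomes, lysosome-related organelles that are passed to the surrounding keratinocytes. Sox10 and Mitf maintain the melanocyte lineage, and Mitf binds the promoters of the pigment enzyme genes at short motifs built on CATGTG. Tyr catalyses the first steps of melanin synthesis, Dct and Tyrp1 act later on the eumelanin branch, and Pmel forms the fibrils on which melanin is laid down. In mouse skin most melanocytes sit in hair follicles, and the epidermis between follicles of haired body skin holds few.

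RNA was taken from the epidermis of 9 mice and measured on Affymetrix arrays, each mouse on an array of its own. The inactivated group was 5 Alox12b fl/fl mice that also carried a Cre-ERT2 recombinase under the keratin 14 promoter (genotype p/p +/cre), and the control group was 4 littermates homozygous for the floxed allele without Cre (p/p +/+). Alox12b encodes a lipoxygenase needed for the skin's lipid barrier. All mice had been backcrossed for 5 generations to the hairless, unpigmented SKH1 strain, were 8 weeks old, received 3 injections of 1 mg tamoxifen, and were killed 6 days after treatment. The keratin 14 promoter is active in basal keratinocytes. Because no control carried Cre, effects of the Cre itself and of losing Alox12b cannot be told apart. The sheets were scraped from frozen skin, so cells of follicles or dermis could be included.

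The array medians lay between 4.34 and 4.42 on the deposited log2 scale. The 11 measured keratinocyte markers were all at or above 9.47 on every array, and their summed linear signal spanned 49926 to 53031 in the inactivated group and 50684.0 to 53284 in the control group. Of these markers 2 were higher (Krt14 by 0.47 and Sfn by 0.70), 3 lower (Col17a1 -0.91, Trp63 -0.35 and Dsc3 -0.25) and 6 did not pass. Among the melanocyte genes only Pmel, Sox10, Mitf and Gpnmb had a probe set above the array median on all 4 control arrays. The first principal component (63.4% of variance) separated the groups, and inactivated replicate 5 stood nearest the controls at 25.3, against 44.9 to 55.8 for the other inactivated arrays and -63.0 to -48.6 for the controls. The Alox12b probe set was higher in the inactivated group (0.61 ± 0.14 SE, adjusted p = 0.00694). Its position relative to the floxed exons was not known, so it does not check the labels. Xist and Y-linked transcripts, read from the arrays since the labels do not give sex, placed 3 females and 2 males in the inactivated group and 1 female and 3 males among the controls.

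The pigment enzyme genes Tyr, Tyrp1 and Dct and the melanosome genes Pmel and Mlana were higher after inactivation. The lineage regulator Mitf, the transporter gene Oca2 and the broadly expressed Gpnmb did not pass the test. Whether the changes of these genes differ from each other was not tested. Of the 19 probe sets, 10 were higher at an adjusted p of 0.05 (limma, Benjamini-Hochberg over all probe sets), 0 were lower and 9 did not pass; of all probe sets 12.7% were higher and 16% lower, 28.6% in either direction. The 10 came from 7 of the 10 genes: Dct, Mlana, Tyrp1, Tyr, Pmel, Sox10 and Slc45a2. On 8 probe sets every inactivated array was above every control array, which held for 11.4% of all probe sets. The median difference over the 10 genes, each by its probe set of highest mean, was 0.81, against 0.03 over all 18193 genes. The 10 genes were chosen with earlier results of these data known, so these comparisons describe the set and do not test it. In whole-tissue RNA, more cells of a type and more RNA per cell cannot be told apart.

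**Figure D1:**
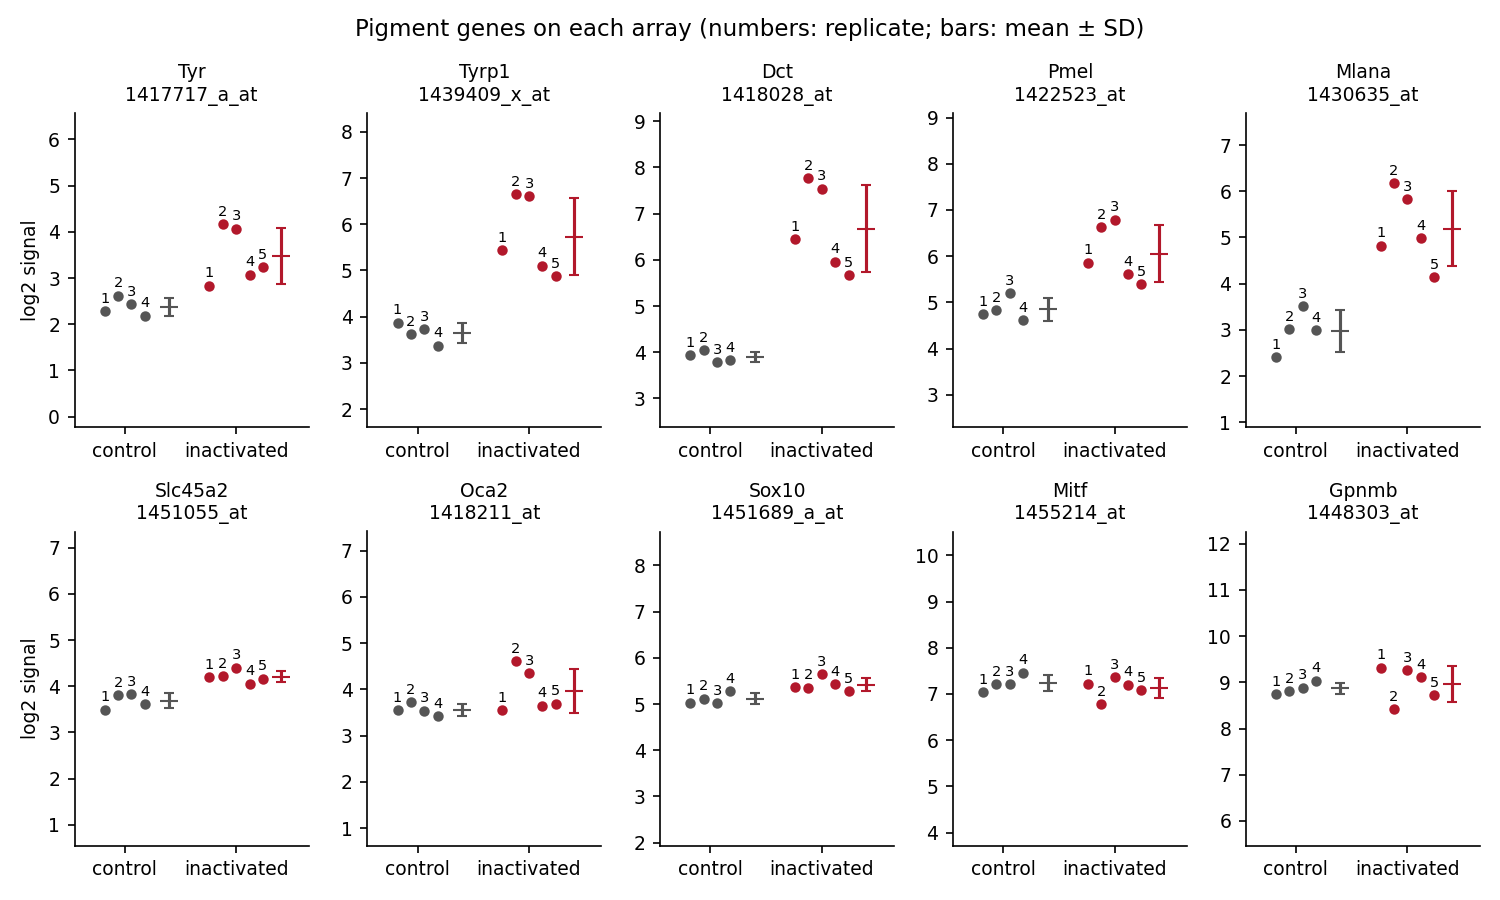
Deposited log2 level (vertical axis, the same span in every panel) of the 10 melanocyte genes, 1 probe set per gene, on the 5 inactivated and 4 control arrays, with points numbered by replicate and bars for the mean and SD. For Dct, Mlana, Tyrp1, Tyr, Pmel and Slc45a2 every inactivated array lies above every control array, and inactivated replicates 2 and 3 are the highest for Dct (7.78 and 7.54).

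The enzyme genes are described first. The 250 bases before the RefSeq start (build GRCm38.p6) of the 3 enzyme genes are shown because their transcripts changed together and because these windows hold the CATGTG core of Mitf binding motifs; capitals mark CATGTG or its reverse complement CACATG.
Tyrp1, chr4:80833963-80834212, plus strand: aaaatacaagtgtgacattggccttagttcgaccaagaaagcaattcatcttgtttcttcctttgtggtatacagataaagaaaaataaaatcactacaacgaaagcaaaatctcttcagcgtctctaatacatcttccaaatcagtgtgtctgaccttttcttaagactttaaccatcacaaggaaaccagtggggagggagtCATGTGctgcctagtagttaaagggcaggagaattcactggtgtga
Tyr, chr7:87493513-87493762, minus strand: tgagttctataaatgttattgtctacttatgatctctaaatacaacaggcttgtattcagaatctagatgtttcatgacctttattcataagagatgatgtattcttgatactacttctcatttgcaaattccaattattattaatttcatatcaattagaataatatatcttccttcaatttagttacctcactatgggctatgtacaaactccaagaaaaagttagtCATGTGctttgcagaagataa
Dct, chr14:118052247-118052496, minus strand: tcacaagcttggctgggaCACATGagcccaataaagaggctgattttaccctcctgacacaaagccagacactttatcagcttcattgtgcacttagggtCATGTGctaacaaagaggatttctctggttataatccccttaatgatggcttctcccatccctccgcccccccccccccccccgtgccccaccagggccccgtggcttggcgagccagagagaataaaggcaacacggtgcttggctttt
The CATGTG core starts at -46 in Tyrp1, at -21 in Tyr and at -150 in Dct, with negative positions upstream of the start, and Dct has a second match, CACATG, at -232. On either strand CATGTG occurs in 14.2% of the 32851 windows of 300 bases (250 before to 50 after the start), so this core alone is common. The longer TCATGTG, which contains that core, occurs in 3.77% of windows and in those of Dct, Tyr and Tyrp1. Around their cores Tyr and Tyrp1 share the 11 bases AGTCATGTGCT, which spell the sequence known as the M-box. This stretch was taken from these 2 windows and occurs in 7 windows in all (0.0213%). Windows were found for 6 of the 10 genes (8 windows, 3 of them for Mitf), and Oca2 was the only other one with CATGTG. The palindrome CACGTG occurs in 7.15% of windows and in 0 of these 8. Such matches describe letters and are not evidence of binding.

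Dct, the dopachrome tautomerase gene, measured 6.45, 7.78, 7.54, 5.96 and 5.67 in inactivated replicates 1 to 5 and 3.94, 4.04, 3.78 and 3.83 in control replicates 1 to 4. All 5 inactivated arrays lay above all 4 controls, and replicates 2 and 3 stood highest. The difference was 2.78 ± 0.39 (log2, SE; 95% interval 1.91 to 3.65), a 6.87-fold higher level, with an adjusted p of 0.000521. The control arrays were all below their array medians, and the inactivated arrays were all above. The deposited table gives no detection call, so whether a dim control level was above background is not known. Folds against such controls (Dct, Tyrp1, Mlana, Tyr, Slc45a2 and Slc7a11) are ratios of the deposited signals, not measured ratios of transcript.

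Tyrp1, whose product stabilises tyrosinase and acts late in eumelanin synthesis, was measured by 3 probe sets. On the first, 1415861_at, the inactivated arrays read 6.07, 7.70, 7.57, 5.72 and 5.28 and the controls 2.88, 2.17, 2.64 and 2.31. The groups were widely apart, with a 15.7-fold difference in signal against dim controls (3.97 ± 0.47, adjusted p = 0.000174). The other probe sets gave 6.87-fold (1415862_at, 2.78 ± 0.48, adjusted p = 0.00177) and 4.25-fold (1439409_x_at, 2.09 ± 0.36, adjusted p = 0.00168). All 3 had no overlap between groups, and their estimates ranged from 4.25-fold to 15.7-fold.

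Tyr, the rate-limiting enzyme of melanin synthesis, was measured by 3 dim probe sets. On probe set 1417717_a_at the inactivated arrays read 2.84, 4.16, 4.07, 3.07 and 3.24 and the controls 2.28, 2.62, 2.43 and 2.18. The groups did not overlap, and the difference was 1.10 ± 0.26, or 2.14-fold (adjusted p = 0.0104). All 3 Tyr probe sets were below the array median on every array. The other 2 showed 0.31 ± 0.11 (1456095_at, adjusted p = 0.0468, overlapping groups) and 0.23 ± 0.09 (1448821_at, adjusted p = 0.0736). The call for 1456095_at was lost in 13 of 19 alternative settings, including 8 of 9 that left out 1 array, with an adjusted p of up to 0.129 without control replicate 2; it was kept only without inactivated replicate 5 among those.

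Pmel and Mlana encode proteins of the melanosome. Pmel measured 5.86, 6.63, 6.79, 5.61 and 5.39 in the inactivated group and 4.75, 4.83, 5.20 and 4.61 in the controls. It was 2.31-fold higher (1.21 ± 0.28, adjusted p = 0.00844), with the lowest inactivated array 0.19 above the highest control. Mlana, which encodes a melanosomal membrane protein that interacts with Pmel, measured 4.82, 6.18, 5.83, 4.98 and 4.14 against 2.41, 3.02, 3.52 and 2.99. It was 4.62-fold higher (2.21 ± 0.38, adjusted p = 0.00163), again without overlap.

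The transporter gene Slc45a2, which acts in melanosome pH control, rose on 1 of 2 probe sets. On probe set 1451055_at it read 4.20, 4.22, 4.40, 4.06 and 4.17 in the inactivated group and 3.49, 3.81, 3.84 and 3.61 in the controls. The groups did not overlap, and the difference was 0.52 ± 0.10, or 1.44-fold (adjusted p = 0.00241). The second probe set gave 0.32 ± 0.13 (adjusted p = 0.0876) and passed only with sex as a covariate. Oca2, which encodes a melanosomal anion transport protein, read 3.54, 4.61, 4.35, 3.65 and 3.69 against 3.55, 3.72, 3.54 and 3.42. Only replicates 2 and 3 stood above the controls, and the difference of 0.41 ± 0.21 (95% interval -0.05 to 0.88, adjusted p = 0.169) did not pass.

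Among the regulators, Sox10 had 3 probe sets, of which 1 passed. On 1451689_a_at the inactivated arrays read 5.37, 5.36, 5.65, 5.43 and 5.28 and the controls 5.03, 5.12, 5.02 and 5.28. The lowest inactivated array equalled the highest control at this rounding, and the difference was 0.30 ± 0.09, or 1.23-fold (adjusted p = 0.0287). That call was lost without inactivated replicate 4 (adjusted p = 0.056) and without control replicate 1 (0.0734), 2 (0.0638) or 3 (0.0853), with sex as a covariate (0.0521), with the replicate number as a block (0.0563), without inactivated replicates 2 and 3 together (0.0783) and at a threshold of 0.01. The other Sox10 probe sets gave 0.18 ± 0.09 (95% interval -0.01 to 0.38, adjusted p = 0.149) and 0.07 ± 0.08 (adjusted p = 0.521).

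Mitf, the master regulator of the lineage, is also transcribed outside melanocytes from other promoters, and which of its isoforms each probe set detects was not examined. On 1455214_at the inactivated arrays read 7.22, 6.77, 7.36, 7.20 and 7.08 and the controls 7.04, 7.21, 7.21 and 7.46. The groups overlapped throughout, and the difference of -0.10 ± 0.12 (95% interval -0.37 to 0.17) did not pass (adjusted p = 0.572). The dimmer probe set gave 0.09 ± 0.16 (95% interval -0.27 to 0.44, adjusted p = 0.727). Gpnmb, a glycoprotein gene that macrophages express as well as melanocytes, read 9.32, 8.42, 9.26, 9.12 and 8.72 against 8.75, 8.81, 8.89 and 9.04 on its brighter probe set (1448303_at). Its difference of 0.10 ± 0.17 (95% interval -0.29 to 0.48, adjusted p = 0.709) did not pass either.

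**Figure D2:**
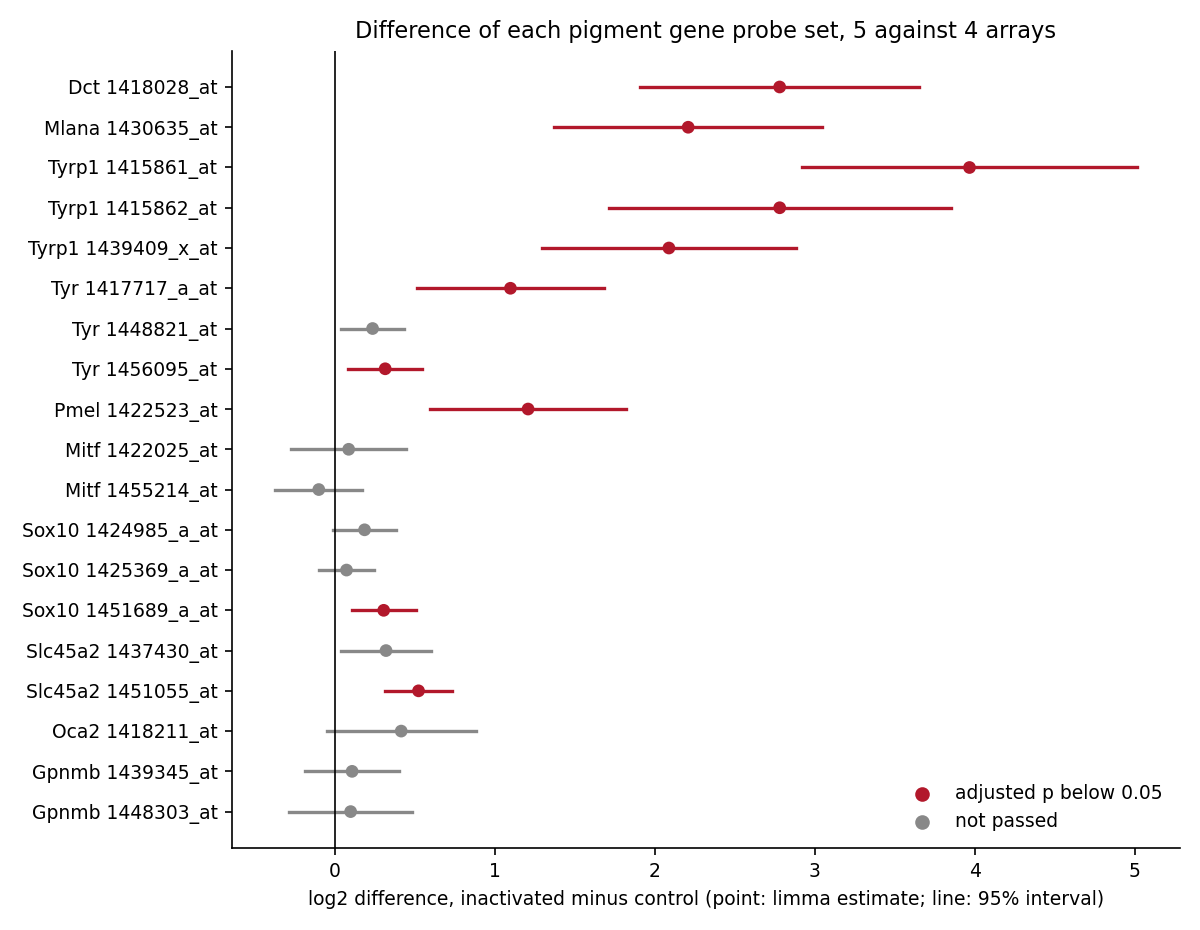
Difference in log2 level, inactivated minus control, for each of the 19 probe sets (points) with its 95% interval (lines), grouped by gene, from the fit across all probe sets; red marks an adjusted p below 0.05 and grey those that did not pass. The largest is Tyrp1 1415861_at at 3.97, and the intervals for Mitf and Gpnmb include 0.

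The inactivated arrays differed among themselves. Replicates 2 and 3 were the highest of the 5 for 9 of the 10 probe sets that passed and for 7 of the 10 genes; over all genes the same held for 12%. Without both arrays, an alternative added after the values were seen, 8 of the 19 probe sets were still higher. Dct then differed by 2.13 (adjusted p = 0.000129), Tyrp1 1415861_at by 3.19, Mlana by 1.67, Pmel by 0.77 (adjusted p = 0.00891) and Tyr by 0.67 (adjusted p = 0.00744). Tyr and Pmel thus moved by more than 1.5 times, and the Oca2 difference was 0.07. Within sexes the direction was shared for Dct (3.23 in males, 2.45 in females), Mlana (2.33 and 2.58), Pmel (1.36 and 1.18) and Tyr (1.09 and 1.18), with 1 control array among the females. The sign differed between males and females for Mitf 1455214_at (-0.29 and 0.17), for Gpnmb (1439345_at -0.12 and 0.34; 1448303_at -0.04 and 0.29) and for Sox10 1425369_a_at (0.19 and -0.02), none of which had passed.

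**Figure D3:**
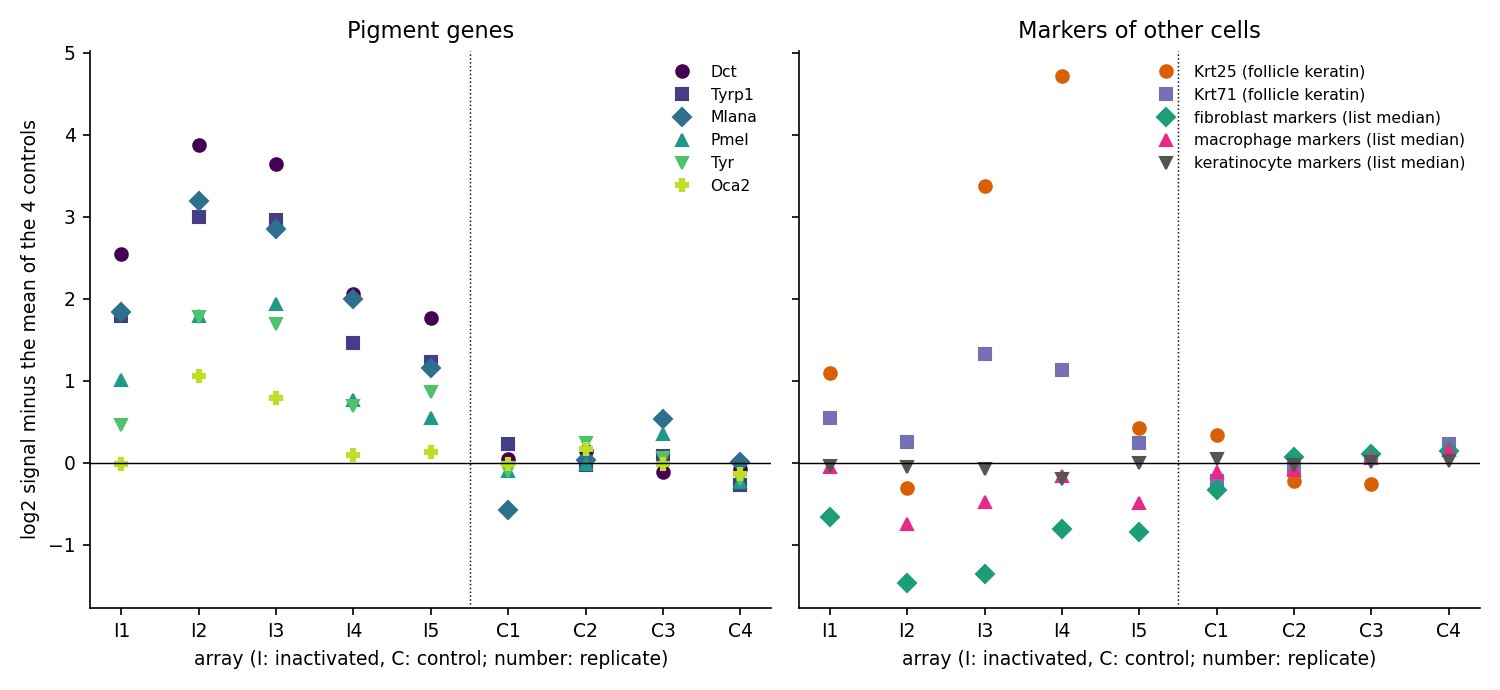
Level on each array minus the mean of the 4 controls (log2) for 6 pigment genes (left), and for 2 follicle keratins and the medians of 3 marker lists (right), with inactivated (I) and control (C) replicates numbered. Inactivated replicates 2 and 3 have the highest Dct, and their fibroblast marker medians are the lowest at -1.46 and -1.36.

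Markers of other cells on the same arrays are given beside these values; their part in the result was not tested, and the log2 scale has no zero, so no marker can be read as absent. Over all genes 15.5% were higher and 18.9% lower. Of 15 measured fibroblast markers 13 were lower and 1 higher, and their summed linear signal spanned 10463 to 17500.4 in the inactivated group and 19243 to 31856 in the controls. The dermal matrix genes Lum (-1.01) and Dpt (-1.08) and the surface protein gene Thy1 (-1.57) were among those lower. Of 18 macrophage markers 8 were lower and 1 higher, with summed signal of 5308 to 9856 against 9205 to 11628. The receptor gene Csf1r fell by 0.82. Of 15 Schwann and glial markers, cells that share Sox10 with melanocytes, 6 were lower, 0 higher and 9 did not pass. Their summed signal was 2331 to 2592 against 3316 to 3723, and the median difference of the list was -0.06. The linear sum mostly follows the brightest markers, Erbb3 (-0.27), Pmp22 (-1.16) and Egr2 (-0.71), which were all lower. Among those that did not pass were S100b (0.12), Cdh19 (0.09), Foxd3 (0.15), Scn7a (0.37), Mbp (-0.06) and L1cam (-0.12). Of 9 mast cell markers, cells that share Kit and Mitf with melanocytes, 2 were higher (Fcer1a by 1.51 and Hdc by 1.42) and 0 lower, with summed signal of 818 to 1531 against 1100.0 to 1209. The mast cell protease genes Cpa3 (-0.14), Mcpt4 (-0.04), Cma1 (-0.39), Tpsb2 (0.53) and Tpsab1 (0.25) did not pass.

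Of 14 follicle markers 3 were higher, 4 lower and 7 did not pass, and the median difference of the list was 0.20. Their summed signal spanned 3369 to 5897 in the inactivated group and 10299.7 to 11339 in the controls. That linear sum mostly follows the brightest markers, Krt79 (control mean 12.6, difference -0.90) and Krt15 (control mean 11.8). The follicle stem cell genes Krt15 (-3.22), Cd34 (-1.30) and Nfatc1 (-0.97, on 1 of its 5 probe sets) were lower, while Lgr5 (0.13) and Lhx2 (-0.22) did not pass. Krt75 (0.89, adjusted p = 0.00927) and Foxn1 (0.33, adjusted p = 0.0383) were higher. The inner root sheath keratin Krt25, singled out after its values were seen, measured 3.75, 2.35, 6.03, 7.37 and 3.08 against 3.00, 2.43, 2.40 and 2.80. It was high on replicates 3 and 4, and the difference did not pass (1.86 ± 0.88, adjusted p = 0.14). Krt71, another keratin of that sheath, was also highest on replicates 3 and 4 and passed (0.70, adjusted p = 0.0405).

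Beyond the 10 genes, genes of the wider pigment pathway were called in both directions. Of 66 other pathway genes measured, 11 were higher, 18 lower and 37 did not pass, while over all genes 15.5% were higher and 18.9% lower. Whether the pathway lists differ from that background was not tested. None of 12 transcription factors of the lineage was higher and 5 were lower (median -0.17). Among those lower were Tfap2b (-1.54 ± 0.24, adjusted p = 0.000869), Zeb2 (-0.58 ± 0.14) and Tfeb (-0.36 ± 0.07). Bcl2, a survival gene counted with them, was lower too (-0.94 ± 0.20, on 3 of its 5 probe sets). The other 7 did not pass, among them Pax3 (0.29, adjusted p = 0.0554), Tfap2a (0.30, adjusted p = 0.0572) and Sox9 (-0.47, adjusted p = 0.0771).

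The signals that keratinocytes send to melanocytes, and their receptors, were mixed: of 15 measured, 4 were higher, 3 lower and 8 did not pass. Kitl, the ligand of the receptor Kit, was 1.48-fold higher on its brightest probe set (0.57 ± 0.08), and 1 of its 4 probe sets passed. Kit passed on both of its probe sets, at 0.38 ± 0.11 (adjusted p = 0.0226) on the brighter. Edn3, an endothelin that acts on melanoblasts, was higher (0.51 ± 0.16, adjusted p = 0.0324), and 2 of its 4 probe sets passed. Its receptor gene Ednrb was lower (-1.37 ± 0.24, adjusted p = 0.0017) and passed on 2 of its 3 probe sets, with -0.39 and -0.23 on the dimmer ones. Mc1r, the melanocortin receptor gene, did not pass on the probe set of highest mean (0.19 ± 0.08, adjusted p = 0.12) and was higher on the other (0.59, adjusted p = 0.0053). Pomc, the precursor of its ligand, did not pass (0.24 ± 0.08, adjusted p = 0.0525). Bmp4 (-1.69 ± 0.14) and Met (-0.60 ± 0.08, on 1 of its 2 probe sets) were lower.

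Of 10 genes listed with the other melanosome membrane proteins 2 were higher and 2 lower. Slc7a11, the cystine transporter that supplies pheomelanin synthesis and glutathione, is counted in this list for that role. Its signal was 11.5-fold higher (3.52 ± 0.21) against control arrays that were all below their medians, and 14.5-fold higher on its other probe set. The copper transporter gene Atp7a rose by 0.55 ± 0.12, and 1 of its 2 probe sets passed. Mcoln1 (-0.55 ± 0.08) and Rab32 (-0.55 ± 0.15) were lower. Of 19 biogenesis genes 3 were higher, Bloc1s2 most clearly (0.86 ± 0.10), and 4 were lower. Of 10 transport genes 2 were higher and 4 lower. Rab27a, which tethers melanosomes to actin, was lower (-1.05 ± 0.12, on 3 of its 4 probe sets). Rab11a, an endosomal recycling gene, was higher (0.56 ± 0.07, on 1 of its 2 probe sets). All the genes named here are also expressed outside melanocytes.

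**Figure D4:**
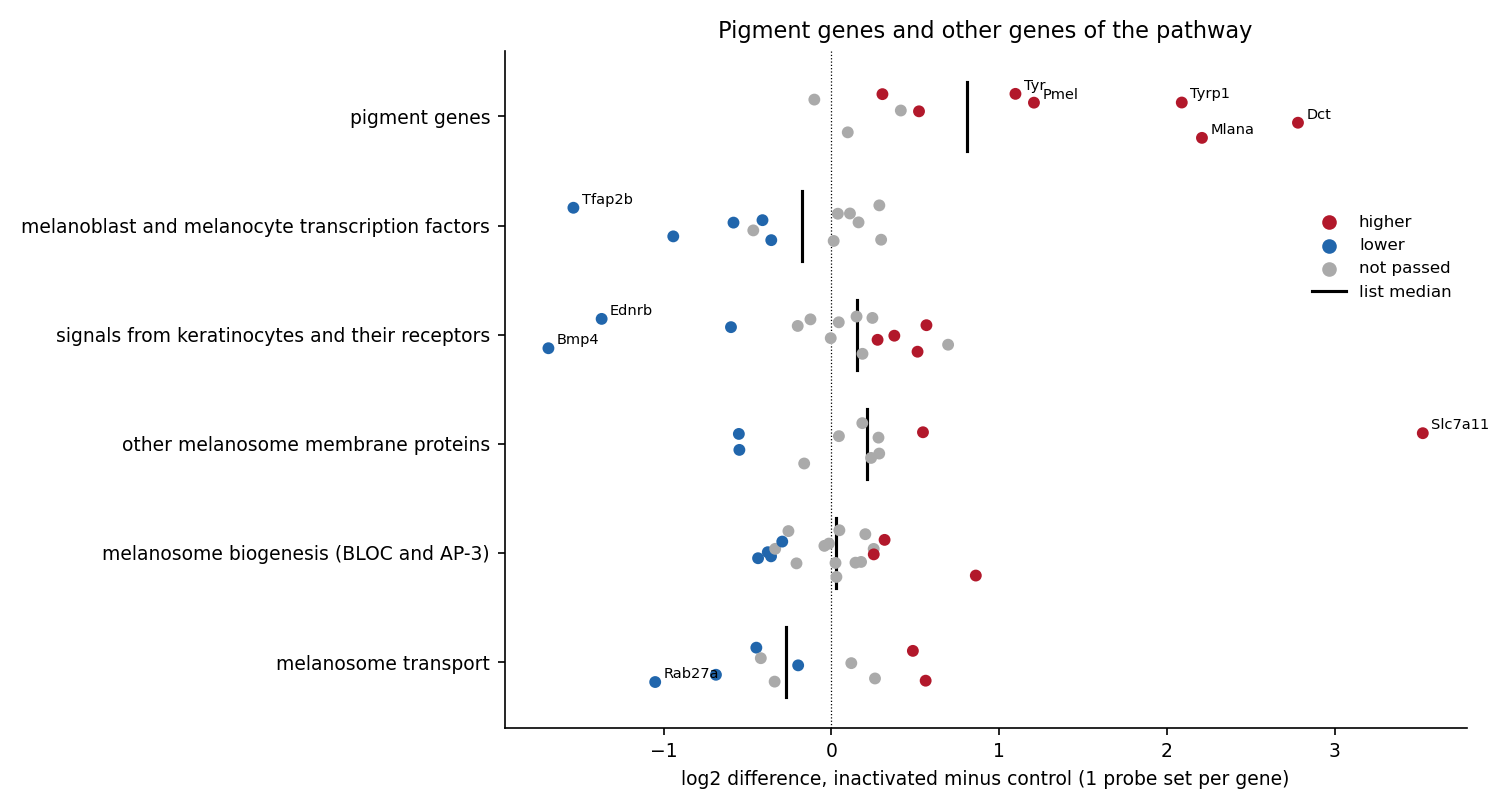
Difference in log2 level, inactivated minus control, of each gene (points) in the 5 pathway lists and the 10 melanocyte genes, with a vertical line at the list median; red points were higher, blue lower and grey did not pass. The melanocyte genes have a median of 0.81. The list medians are -0.17 for transcription factors, 0.15 for signals, 0.21 for other membrane proteins, 0.02 for biogenesis and -0.27 for transport.

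The genes outside the lists whose profiles over the 9 arrays, each taken relative to its control mean, lay nearest to a melanocyte gene were found by the root mean square difference. For Dct these were Slco1a5 (0.487), Pitx1 (0.510) and Kcnj12 (0.535), and for Tyr they were Otop2 (0.231), Btbd19 (0.283) and Myl7 (0.298). Slco1a5 read 6.42, 7.40, 7.16, 7.11 and 6.57 in the inactivated group and 4.07, 4.31, 4.09 and 4.08 in the controls. For Pmel the nearest were Rel (0.258), Proser2 (0.311) and Otop2 (0.312), for Tyrp1 Nmu (0.411), Sowahb (0.420) and Calcb (0.461), and for Mlana Sowahb (0.409), Magi3 (0.441) and Sprr2k (0.489).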

How the data were processed

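The log2 values were deposited by the authors, with the affy package named in the submitters' processing notes without a version; how background was corrected and arrays were normalised is not stated there or in the labels. The labels do not state the log base, and log2 was read from the range of the values. The deposited table holds 1 column per array for 9 arrays. Of 45037 probe sets, 34945 were annotated to 1 gene, 932 to several and 9160 were unnamed. Differences were fitted with limma 3.58.1 in R 4.3.3 (lmFit and eBayes, no covariate, 7 residual degrees of freedom), with Benjamini-Hochberg adjustment over all probe sets and a threshold of 0.05. Genes outside the 10 were represented by the single-gene probe set of highest mean. The script was tested on simulated data. The number of arrays limits the precision. The labels call the samples biological replicates of separate mice. They do not say whether the numbers 1 to 4 shared by the groups pair animals, so no pairing was fitted.

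Named genes were every single-gene probe set of the 10 genes, up to 4 genes of lowest adjusted p past the threshold in each pathway list, 7 signalling genes whatever their value, up to 3 in each marker list, and the 3 nearest profiles of 5 genes. Some further genes of these lists are named beside them. The members and the lists were chosen with earlier results of these data known. Asip, one of the 7, had no single-gene probe set, nor had F2rl1, Slc24a5, Cd63 and Bloc1s1. Promoter windows are from RefSeq. Alternatives changed scaling, filter, prior, weights, covariates, threshold and arrays.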

Additional observations from a re-analysis of the deposited data

Results flagged for a closer look

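In 9 of 120 groups of 4 or 5 values checked, 1 array stood apart from the others of its group by Dixon's test; chance gives about 1 in 20. Slc45a2 (1437430_at) reached 3.30 on inactivated replicate 2, the others 2.92 to 2.95. Slc7a11 (1420413_at) was 6.79 on inactivated replicate 5, the others 7.22 to 7.39, and Egr2 was 9.01 there, the others 8.69 to 8.75. Control replicate 1 was low for Tfeb (6.19, others 6.30 to 6.31), Pmp22 (9.49, others 9.86 to 9.91), Thy1 (9.07, others 9.50 to 9.57), Lum (10.80, others 11.19 to 11.26) and Dpt (9.24, others 9.65 to 9.74). Bcl2 was 6.50 on control replicate 3, the others 6.36 to 6.38.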

How the results depend on the processing

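Dct, Mlana, Pmel, the 3 Tyrp1 probe sets and Slc45a2 1451055_at kept their direction and their call in every other setting in which they were fitted; Tyr 1417717_a_at missed only the threshold of 0.01. With the filter at the median, 5 member probe sets were higher, since dim ones were not tested. At the threshold of 0.01, 2932 of all probe sets were higher and 4377 lower, and 6 pathway genes were higher. Without probe sets of several transcripts 6 pathway genes were higher, and 18 with array medians subtracted, where 54% of calls were higher against 44.2% in the main fit. Leaving out 1 array gave 8 to 10 member probe sets higher and 0 lower, 4161 to 5931 of all probe sets higher and 5753 to 7381 lower, and 7 to 13 pathway genes higher (7 without control replicate 3) and 13 to 17 lower. The cause was not tested.

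Deviations of same-numbered arrays correlated at -0.27, 0.01, -0.09 and 0.08, and only replicate 4 correlated best with its own number. So few correlations cannot show whether the numbers pair animals. With the replicate block, where inactivated replicate 5 has no partner and carries no weight, 9 member probe sets were higher and 0 lower, 4679 of all probe sets were higher and 6329 lower, and 9 pathway genes were higher and 15 lower. Differences near 0 changed sign: Mitf 1422025_at to -0.024 without inactivated replicate 1 and -0.035 without control replicate 1, (up to 0.187 with other arrays left out), and Gpnmb 1439345_at to -0.012 without inactivated replicate 3 (up to 0.169) and -0.0083 without inactivated replicates 2 and 3. Tyr averaged over its probe sets differed by 0.55 (adjusted p = 0.00784) and Sox10 by 0.19 (adjusted p = 0.0631). Signals below the array median, as for Tyr, limit what these arrays can resolve.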
